A study of Bos taurus with 60 samples.

Results

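Mammary tissue in the late dry period was compared with mammary tissue labelled as late lactation, in all 12 samples taken 25 days after dry-off (D25) and all 12 samples taken 3 days before it (D-3), which are 24 of the 60 samples of the series. The samples were chosen by their time label alone. They were biopsies from the same 12 multiparous, pregnant Holstein cows, 6 cooled (CL, with shade, fans and soakers) and 6 heat-stressed (HT, with shade only). Neither treatment had begun at D-3, since both ran from dry-off on. CL and HT were put together, with 12 cows a side, and compared unpaired. Biopsy sites alternated within the udder between time points, visible fat was trimmed off, and cells were not sorted.

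In lactation the secretory epithelium of the mammary gland makes casein and other milk proteins, lactose and milk fat, and draws amino acids, glucose, fatty acids, calcium and phosphate from the blood. When milking stops, the gland involutes, and before the next calving it grows secretory tissue again. The late dry period falls where this regrowth begins, and the question was which genes differed in expression between that stage and the lactating gland.

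The total count per sample was between 20525083 and 25324602 over the 24 samples, so depth was close to even. The share of counts taken by the genes for 2 caseins (CSN1S1 and CSN2) and for alpha-lactalbumin (LALBA) was not. At D-3 these 3 genes took between 0.190% and 49.8% of the counts of a sample, with a median of 4.75%, and at D25 between 0.0713% and 3.37%, with a median of 0.428%. The D-3 samples stood in separate ranges. In cows 7965, 8564 and 8647 (CL) and 8541 and 8713 (HT) the share was 40.9%, 40.2%, 44.4%, 43.1% and 49.8%, while in the other 7 cows it was at most 8.03%. In 3 of those 7 (8060, 8314 and 8686) it was below that of the same cow at D25. LALBA, the alpha-lactalbumin gene, was between 9.90 and 507 CPM in 6 of the 7 and at 4485 CPM in cow 8668, beside 50349 to 104559 CPM in the 5 cows and 5.48 to 638 CPM at D25. In these 3 milk protein genes, the tissue of those 6 D-3 samples thus lay within the D25 range, although it was labelled as late lactation. Whether their labels, the sampled tissue or the state of the gland differed cannot be told apart here. Over all loci, the 5 with the most counts in a sample took 54.6% to 62.0% of the counts in the D-3 samples of the 5 cows. In the other 7 D-3 samples they took at most 11.5%, and at D25 at most 7.91%. The plot of milk protein reads by cow shows the shares.

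**Figure D1:**
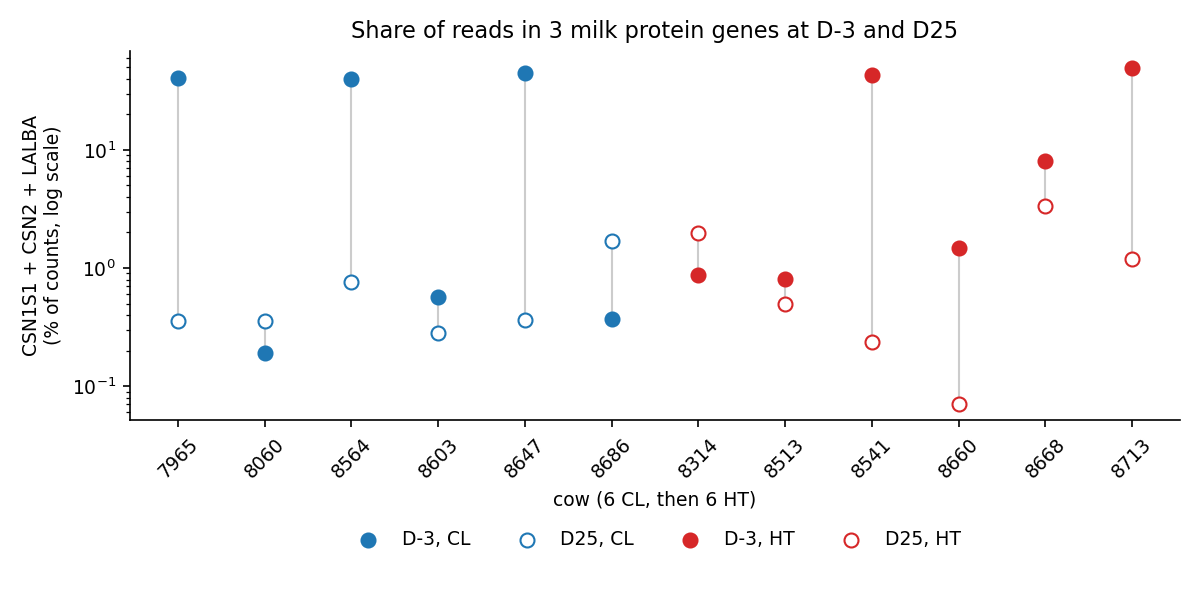
Share of the counts in CSN1S1, CSN2 and LALBA (percent, log axis) for each cow at D-3 (filled) and D25 (open), CL in blue and HT in red. In 5 cows the D-3 share was over 40%, and in the other 7 it was between 0.190% and 8.03%, while the D25 shares were between 0.0713% and 3.37%.

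At a false-discovery rate (FDR) of at most 0.05, 1930 of 14714 loci tested (13.1%) were differentially expressed (DEGs) for D25 vs. D-3. The test was the quasi-likelihood F-test of edgeR on counts scaled by trimmed mean of M-values (TMM). Of these, 582 (3.96% of the loci tested) were upregulated and 1348 (9.16%) were downregulated at D25. The decreases were also larger. A change of at least 2-fold was reached by 458 of the downregulated and 78 of the upregulated DEGs, and the median log2 fold change was -0.73 among the former and 0.61 among the latter, beside 0.003 over all loci. With the cow as a replicate block, the count was 3003 (1195 upregulated and 1808 downregulated), and in a fit of the 24 samples alone it was 945. The balance of directions depended on the scaling. With library size as the sole scaling, the median log2 fold change of all loci shifted to 0.48, and 5853 loci were called upregulated and 185 downregulated.

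The ranges of the 12 D25 values and the 12 D-3 values overlapped for every locus tested (0% did not overlap). For each downregulated DEG, the number of D-3 samples above the highest D25 sample had a median of 6 and was at most 11. The D-3 samples of the 5 cows rich in milk protein reads lay above the whole D25 range for 90.5% to 98.2% of the downregulated DEGs, and those of the other 7 for 4.75% to 34.6%. For the upregulated DEGs the share lying below the whole D25 range was 59.3% to 88.3% in the 5 and 10.3% to 25.3% in the 7. These shares describe DEGs called on the same samples and were not tested. When the 5 D-3 samples were left out, a setting chosen after seeing the data, 2 loci had an FDR of at most 0.05, both lower at D25, and 472 loci had an unadjusted p under 0.05. The 5 were set apart by their milk protein reads, which are part of what D25 vs. D-3 compares, so values without them describe that choice and are no separate test. The 2 loci, XLOC_019781 and XLOC_025221, have no gene symbol and were chosen after their values were seen. Both were highest in the D-3 sample of cow 8686, at 155 and 269.9 CPM, and neither passed with the cow as a replicate block over all samples. The count also depended on single cows. It was 865 without cow 8541, 872 without 8647, 1044 without 8713 and 1102 without 8564. Of the 74 genes and loci named here that were called, 17 lost their call without cow 8647 and 14 without 8713. Without 8541, 8564 and 7965, calls were lost for 13, 12 and 9, and without any other cow for at most 6. Only some of these losses are given gene by gene below. No member of any gene group below had an FDR of at most 0.05 without the 5 samples, and the median of each main group without them is given beside its count.

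The spread between cows was also smaller at D25 than at D-3, but this was not particular to D25. The SD of log2 CPM over the 12 cows was larger at D-3 than at D25 for 81.9% of the loci, with a median of 0.47 at D-3 and 0.32 at D25. On the days between, the median was 0.43 at D3, 0.32 at D7 and 0.38 at D14. Among the downregulated DEGs the medians were 0.75 at D-3 and 0.30 at D25. These DEGs were called on the same samples, so the wider D-3 spread among them is no separate result.

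**Figure D2:**
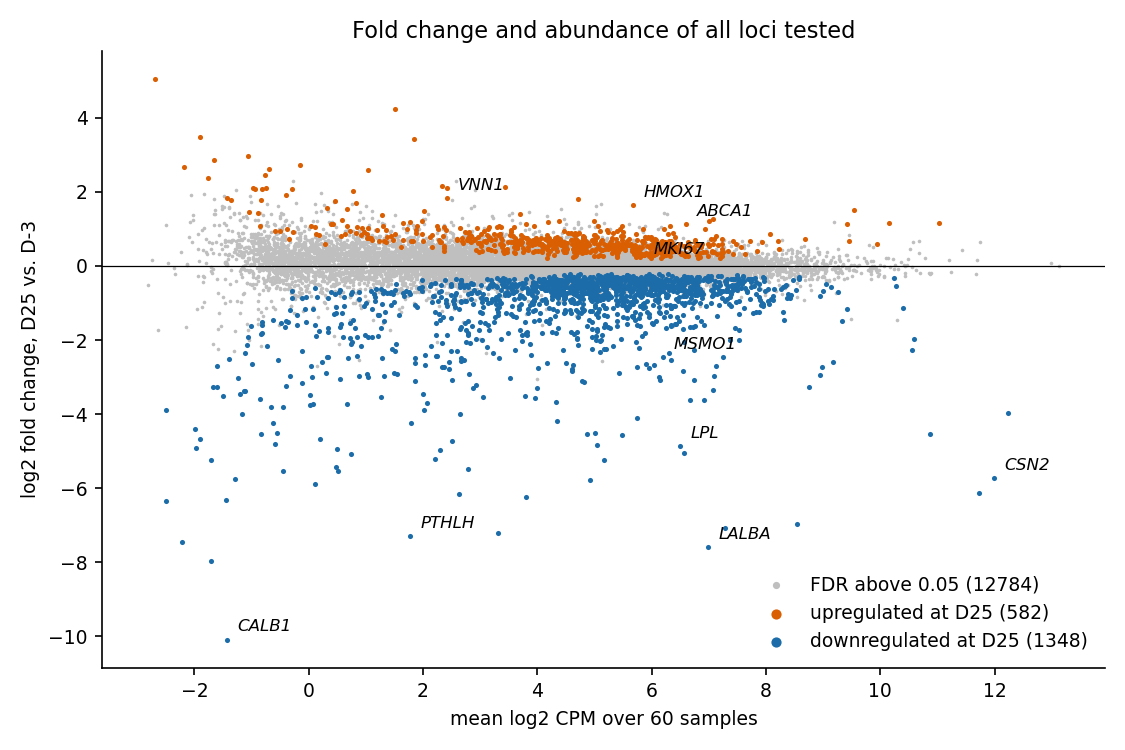
Log2 fold change for D25 vs. D-3 (y axis) against the mean log2 CPM over 60 samples (x axis) for the 14714 loci tested, with the 582 upregulated and 1348 downregulated DEGs in orange and blue. The downregulated DEGs reach far lower than the upregulated ones reach high, and a common casein and a rare calcium-binding protein gene (CSN2 and CALB1) both lie among the lowest.

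A gene symbol could be paired with 3007 of the loci tested. The pairs came from a part of the study's own tables that held mostly loci ranked high for changes early after dry-off, in which D3 was compared with D-3 and D7, so named loci are not a neutral sample. The same D-3 samples enter that ranking and D25 vs. D-3, so the 2 are not independent. Many listed genes had no paired locus. Paired were 10 of 20 for fatty acid and triglyceride synthesis and 8 of 15 for lipid uptake and the milk fat globule. For cholesterol it was 14 of 20, and for pyruvate and the citrate cycle 8 of 27. Of the 582 upregulated DEGs 92 had a symbol, and of the 1348 downregulated DEGs 613. Among loci with a symbol 3.06% were upregulated and 20.4% downregulated, and the median log2 fold change was -0.11. These are the shares against which the counts within gene groups below should be read. Levels are TMM-normalised CPM, that is, counts relative to a fixed library size. They are scaled to an effective library size that leaves the dominant genes aside, so in the sample with the largest sum the 3 milk protein genes together reached 1663100 CPM. A level per transcript length was not computed, and levels are not compared between genes.

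The 3 milk protein genes that had a paired locus, of 7 listed, were all downregulated at D25. CSN1S1, which encodes alpha-S1-casein, ranged from 743 to 790471 (median 21866) CPM at D-3 and from 342 to 15291 (median 1574) CPM at D25, a log2 fold change of -6.12 ± 1.27 (SE), FDR = 0.000808. CSN2, which encodes beta-casein, ranged from 827 to 768071 (median 21302) CPM at D-3 and from 269.9 to 15722 (median 2366) CPM at D25, a log2 fold change of -5.73 ± 1.22 (SE), FDR = 0.00105. LALBA, the regulatory subunit of lactose synthase, ranged from 9.90 to 104559 (median 2496) CPM at D-3 and from 5.48 to 638 (median 36.4) CPM at D25, a log2 fold change of -7.59 ± 1.54 (SE), FDR = 0.000619. In each of the 3 genes every D25 sample was below the D-3 median, 6 D-3 samples were above all D25 samples, and the other 6 overlapped with them. Without the 5 D-3 samples the log2 fold changes were -1.19, -0.78 and -2.28, and none passed. HSTN, the gene of the milk peptide histatherin, fell by 7.20 on the log2 scale (FDR = 0.00105), and its highest D25 value was 31.9 CPM beside 3907 CPM at D-3.

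Genes of mineral transport into milk fell as well. CALB1, a cytosolic calcium-binding protein, was the named gene with the largest decrease, with values from 0 to 1951 (median 1.40) CPM at D-3 and from 0 to 0.515 (median 0.163) CPM at D25 and a log2 fold change of -10.09 ± 1.48 (SE), FDR = 6.26e-06. It was at 0 in some samples on both days, and 7 D-3 samples were above all D25 samples. The highest D-3 values were 1951 CPM in cow 8647 and 366 CPM in cow 8713, beside at most 65.6 CPM in the other cows. The size of the CALB1 decrease thus rests mainly on those cows. PTHLH, the parathyroid hormone-related protein that the lactating gland releases, ranged from 0.668 to 644 (median 20.0) CPM at D-3 and from 0.393 to 3.47 (median 0.991) CPM at D25, a log2 fold change of -7.29 ± 0.99 (SE), FDR = 1.92e-06. SLC34A2, a sodium-phosphate cotransporter, ranged from 14.2 to 4332 (median 88.9) CPM at D-3 and from 7.03 to 46.4 (median 26.7) CPM at D25, a log2 fold change of -5.24 ± 0.83 (SE), FDR = 1.94e-05. For PTHLH and SLC34A2 likewise, 7 of 12 D-3 samples exceeded every D25 sample. Of the 7 tested loci listed for calcium, phosphate and other milk secretion, 6 were downregulated, with a median of -2.14 (-0.12 without the 5 D-3 samples), among them the calcium channel gene ORAI1, with -2.14 (FDR = 2.51e-05), and the locus of RNASE4, ANG and ANG2, with -1.47 (FDR = 0.00076). SLC12A2, a sodium-potassium-chloride cotransporter, did not pass at 0.70 (FDR = 0.138), but was higher at D25 than at D3, by 1.29 (FDR = 0.00952). With the cow as a replicate block it was also called higher against D-3 (FDR = 0.0444).

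**Figure D3:**
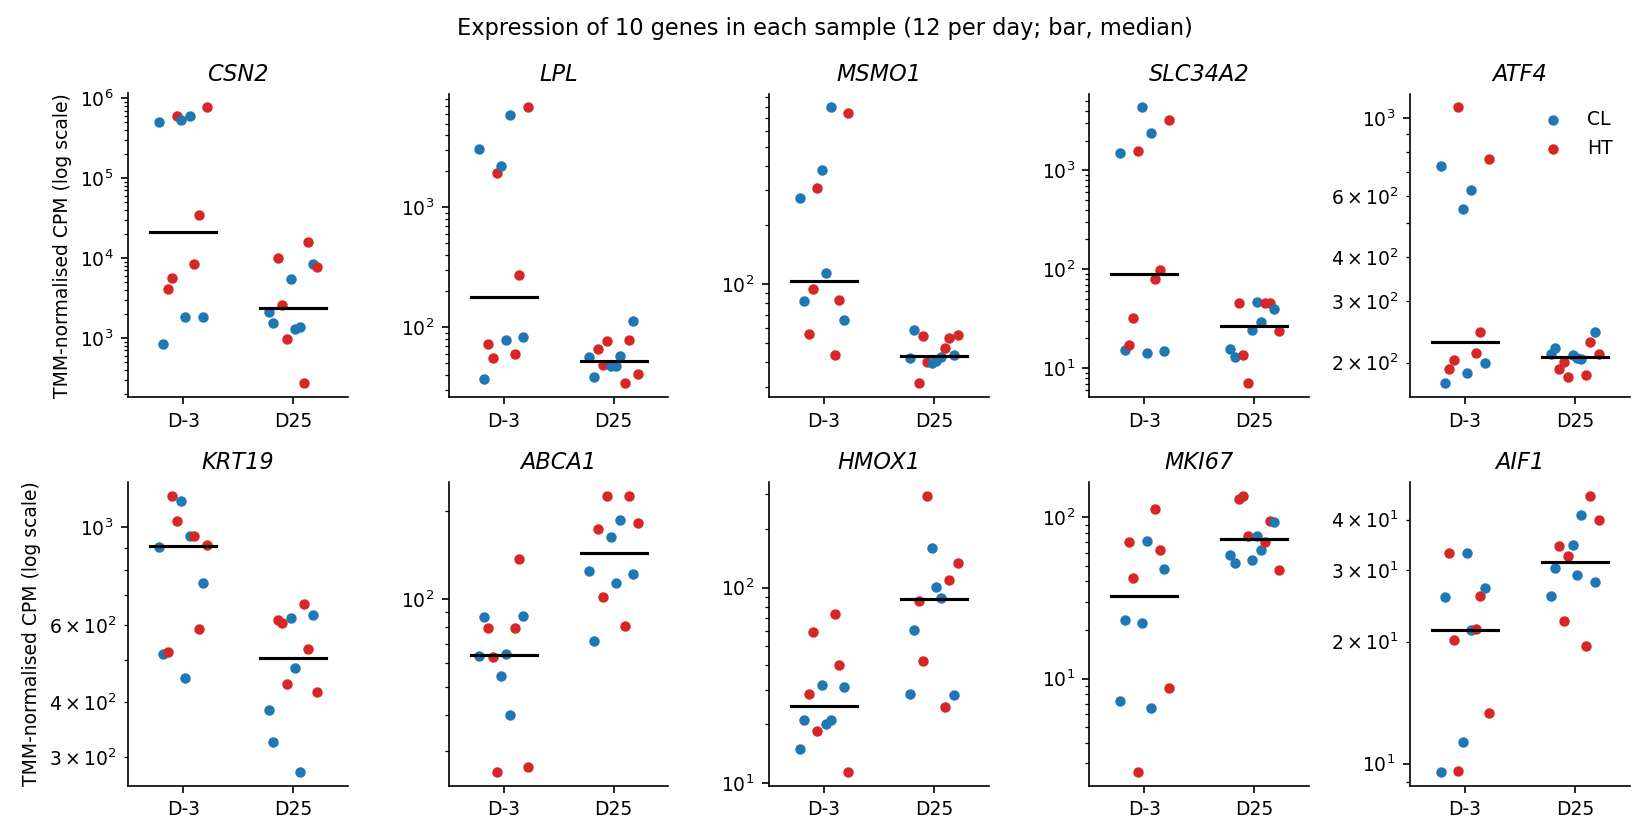
TMM-normalised CPM (log axis) of 10 genes in each of the 12 D-3 and 12 D25 samples, CL in blue and HT in red, with the median as a bar. For CSN2, LPL, SLC34A2 and ATF4 the D-3 samples spread widely and only some lie above the D25 samples, while for ABCA1 and MKI67 7 of the 12 D-3 samples lie below all of D25.

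Milk fat is made from fatty acids built in the epithelium and from fatty acids taken up from blood lipoproteins. Of 10 genes of fatty acid and triglyceride synthesis with a paired locus, of 20 listed, 9 were downregulated, with a median log2 fold change of -2.49 (-0.16 without the 5 D-3 samples). FASN, the fatty acid synthase, ranged from 803 to 24912 (median 4074) CPM at D-3 and from 551 to 4198 (median 1766) CPM at D25, with -1.98 ± 0.50 (SE), FDR = 0.00567. SCD, the stearoyl-CoA desaturase, ranged from 12.8 to 1901 (median 79.4) CPM at D-3 and from 7.59 to 52.3 (median 22.5) CPM at D25, with -4.52 ± 0.73 (SE), FDR = 2.23e-05. GPAT4, a glycerol-3-phosphate acyltransferase, had the smallest p of the group and ranged from 73.2 to 1103 (median 117) CPM at D-3 and from 66.1 to 101 (median 90.3) CPM at D25, with -2.28 ± 0.34 (SE), FDR = 7.51e-06. Its D25 values were tightly grouped, and 8 of the 12 D-3 samples were above all of them. Further decreases were seen in the acetyl-CoA carboxylase gene ACACA, at -2.003 (FDR = 0.000182), in GPAM, at -2.94 (FDR = 7.84e-05), and in LPIN1, which makes diacylglycerol, at -3.12 (FDR = 2.71e-05). The member that did not pass was ACSS1, a mitochondrial acetyl-CoA synthetase, at -0.78 (FDR = 0.06).

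Of 8 genes of lipid uptake and the milk fat globule, 7 were downregulated, with a median of -3.35 (-0.20 without the 5 D-3 samples). LPL, the lipoprotein lipase that frees fatty acids from blood triglycerides, ranged from 36.8 to 6826 (median 179) CPM at D-3 and from 34.1 to 113 (median 52.7) CPM at D25, a log2 fold change of -4.86 ± 0.66 (SE), FDR = 1.92e-06. FABP3, a fatty acid-binding protein, ranged from 1.96 to 4187 (median 118) CPM at D-3 and from 7.40 to 58.1 (median 20.0) CPM at D25, a log2 fold change of -5.77 ± 0.95 (SE), FDR = 2.71e-05. The fatty acid translocase CD36 and the milk transporter ABCG2 followed, with log2 fold changes of -2.74 (FDR = 0.000195) and -3.62 (FDR = 6.5e-05). Of the proteins that coat the fat globule, xanthine dehydrogenase (XDH) changed by -2.26 (FDR = 0.000815) and butyrophilin (BTN1A1) by -3.07 (FDR = 0.0168). The BTN1A1 call was lost without cow 8647 or without cow 8713. PLIN2, a lipid droplet protein, did not pass at -0.93 (FDR = 0.117), but did with the cow as a replicate block (FDR = 0.0304), where all 8 were lower. For D25 vs. D3 none of the 8 passed, and the log2 fold changes of LPL and ABCG2 were 0.06 (FDR = 0.965) and -0.41 (FDR = 0.707).

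Cholesterol is built from acetyl-CoA by a long chain of enzymes. All 14 tested genes of the cholesterol list were downregulated, with a median of -1.62, and with library size as the sole scaling it was -0.51 and 10 of the 14 passed. MSMO1, a sterol demethylating enzyme, had the smallest p of the group. Its values ranged from 43.9 to 795 (median 104) CPM at D-3 and from 31.3 to 58.5 (median 43.1) CPM at D25, with -2.47 ± 0.33 (SE), FDR = 1.87e-06, and 10 of 12 D-3 samples were above all D25 samples. HMGCS1, which makes HMG-CoA, ranged from 43.8 to 1341 (median 86.5) CPM at D-3 and from 29.5 to 53.9 (median 41.4) CPM at D25, with -2.67 ± 0.38 (SE), FDR = 3.54e-06. For HMGCS1 and the isomerase gene IDI1, at -2.26 (FDR = 1.92e-06), likewise 10 of 12 D-3 samples were above all D25 samples. Smaller changes were seen in MVD, at -0.86 (FDR = 0.00539), and HSD17B7, at -0.99 (FDR = 0.0139), which were 0.007 and 0.02 with library size as the sole scaling. The HSD17B7 call was lost in the fit of the 24 samples alone. MSMO1 was lower at D25 than at D3 too, with a log2 fold change of -1.13 (FDR = 0.0193). Without the 5 D-3 samples no member passed, and the median of the group was -0.39.

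The regulators of these pathways changed less evenly. INSIG1, which holds sterol regulatory element-binding proteins back in the endoplasmic reticulum, ranged from 28.8 to 2265 (median 138) CPM at D-3 and from 19.3 to 43.1 (median 30.4) CPM at D25, with -4.09 ± 0.54 (SE), FDR = 1.87e-06. SREBF2, the regulator of cholesterol genes, ranged from 117 to 327 (median 181) CPM at D-3 and from 85.6 to 180.0 (median 123) CPM at D25, with -0.69 ± 0.16 (SE), FDR = 0.0021. SREBF1, the counterpart for fatty acid genes, did not pass at -0.67 (FDR = 0.0846), nor did PPARG at -0.52 (FDR = 0.202). PPARGC1A, a coactivator of oxidative metabolism, changed by -2.92 (FDR = 0.00053). In all, 4 of 7 regulators were downregulated, with a median of -0.69 that became 0.03 with library size as the sole scaling, where the median of all loci was 0.48, and -0.07 without the 5 D-3 samples.

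The genes of sugar, energy and amino acid metabolism fell in part. Among 8 genes of glucose use and lactose synthesis, 5 were downregulated. The glucose transporter SLC2A1 ranged from 24.7 to 235 (median 53.5) CPM at D-3 and from 29.8 to 48.3 (median 40.5) CPM at D25, with -1.37 ± 0.26 (SE), FDR = 0.000279. B4GALT1, the catalytic partner of alpha-lactalbumin in lactose synthase, ranged from 649.9 to 6466 (median 1791) CPM at D-3 and from 846 to 1642 (median 1301) CPM at D25, with -1.15 ± 0.28 (SE), FDR = 0.00411, beside -7.59 for LALBA. UGP2, which makes UDP-glucose, changed by -1.26 (FDR = 0.00267), and PGM1, a phosphoglucomutase, was at 0.01 (FDR = 0.957). Of 8 genes listed for pyruvate use and the citrate cycle, 4 were downregulated, led by IDH1, at -1.17 (FDR = 0.000618), and PDHA1, at -0.53 (FDR = 0.00384). IDH1 encodes the cytosolic isocitrate dehydrogenase, which is not the enzyme of the mitochondrial cycle. The medians of these groups were -0.74 and -0.44, and both were above 0 with library size as the sole scaling, at 0.20 and 0.28. Without the 5 D-3 samples they were 0.03 and -0.04. In the fit of the 24 samples alone, 3 of the 8 glucose genes and 1 of the 8 pyruvate and citrate cycle genes were lower, and PDHA1 was not among them. With library size as the sole scaling none of either group was lower, and 2 and 1 were higher.

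Amino acids reach the epithelium through carriers in its membrane. Of 11 tested, 7 were downregulated, with a median of -0.90 (-0.03 with library size as the sole scaling). SLC7A5, a carrier of large neutral amino acids, ranged from 26.3 to 909 (median 67.9) CPM at D-3 and from 26.9 to 63.1 (median 42.9) CPM at D25, with -2.74 ± 0.43 (SE), FDR = 1.77e-05. SLC1A5, a glutamine carrier, ranged from 12.8 to 489 (median 41.3) CPM at D-3 and from 16.1 to 42.0 (median 26.2) CPM at D25, with -2.32 ± 0.38 (SE), FDR = 2.38e-05, and SLC38A2 changed by -0.62 (FDR = 0.00526). Of 11 genes that break down branched-chain amino acids, 6 were downregulated (6, and 1 higher, with the cow as a replicate block), with the dehydrogenase genes HIBADH at -1.38 (FDR = 0.000428) and IVD at -0.67 (FDR = 0.0143). Of 8 aminoacyl-tRNA synthetase genes, 6 were downregulated, with TARS at -1.13 (FDR = 0.000217) and GARS at -1.11 (FDR = 0.00072). The medians of these last 2 groups were -0.57 and -0.44, and with library size as the sole scaling 0.25 and 0.32. Without the 5 D-3 samples the medians of the 3 groups were 0.02, 0.06 and 0.01. In the fit of the 24 samples alone 6 of the transporters, 1 of the branched-chain genes and 2 of the synthetase genes were lower, and SLC38A2 and IVD lost their calls. With library size as the sole scaling 4, 0 and 0 were lower and 2, 2 and 3 were higher.

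In the list of stress and protein folding genes, 6 of 9 were downregulated and 1, HMOX1, was upregulated, with a median of -1.05 (-0.04 with library size as the sole scaling and -0.22 without the 5 D-3 samples). The members that fell include targets of the amino acid response. ATF4, its transcription factor, ranged from 175 to 1074 (median 229) CPM at D-3 and from 181 to 245 (median 208) CPM at D25, with -1.05 ± 0.20 (SE), FDR = 0.000223. ASNS, the asparagine synthetase, ranged from 25.1 to 196 (median 43.9) CPM at D-3 and from 24.1 to 35.2 (median 27.9) CPM at D25, with -1.57 ± 0.25 (SE), FDR = 1.95e-05. The glutathione-degrading enzyme CHAC1, at -4.50 (FDR = 6.26e-06), the co-chaperone DNAJC12, at -4.84 (FDR = 2.51e-05), and the transcription factor DDIT3, at -0.54 (FDR = 0.0168), fell as well, the last not in the fit of the 24 samples alone. Of 5 genes of lactogenic signalling, the cytokine signalling inhibitor CISH, at -0.86 (FDR = 0.0118), and the glucocorticoid receptor gene NR3C1, at -0.59 (FDR = 0.00616), were downregulated, while both were above 0 with library size as the sole scaling, at 0.0252 and 0.135. Of 11 pregnancy hormone and growth factor genes, VEGFA, an endothelial growth factor, was downregulated at -0.84 (FDR = 0.000192), and IGF1 did not pass at 0.63 (FDR = 0.11), but was called higher with the cow as a replicate block (FDR = 0.0494). In the mucosal defence list 2 of 7 were downregulated, GP2 at -4.53 (FDR = 0.000215) and the Fc receptor gene FCAMR at -2.03 (FDR = 0.046). The lymphocyte chemokine genes CXCL12 and CXCL13 did not pass against D-3. For D25 vs. D3, 2 genes of this list were higher, CXCL12 at 0.53 (FDR = 0.0307) and CXCL13 at 2.36 (FDR = 0.00288), and 2 were lower, with a median of -1.45 over the 7. Among named genes outside these groups, the large decreases were in LOC786474, at -6.24 (FDR = 2.71e-05), the keratin gene KRT24, at -5.53 (FDR = 0.000145), and the lipoxygenase gene ALOX15, at -5.47 (FDR = 1.95e-05).

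**Figure D4:**
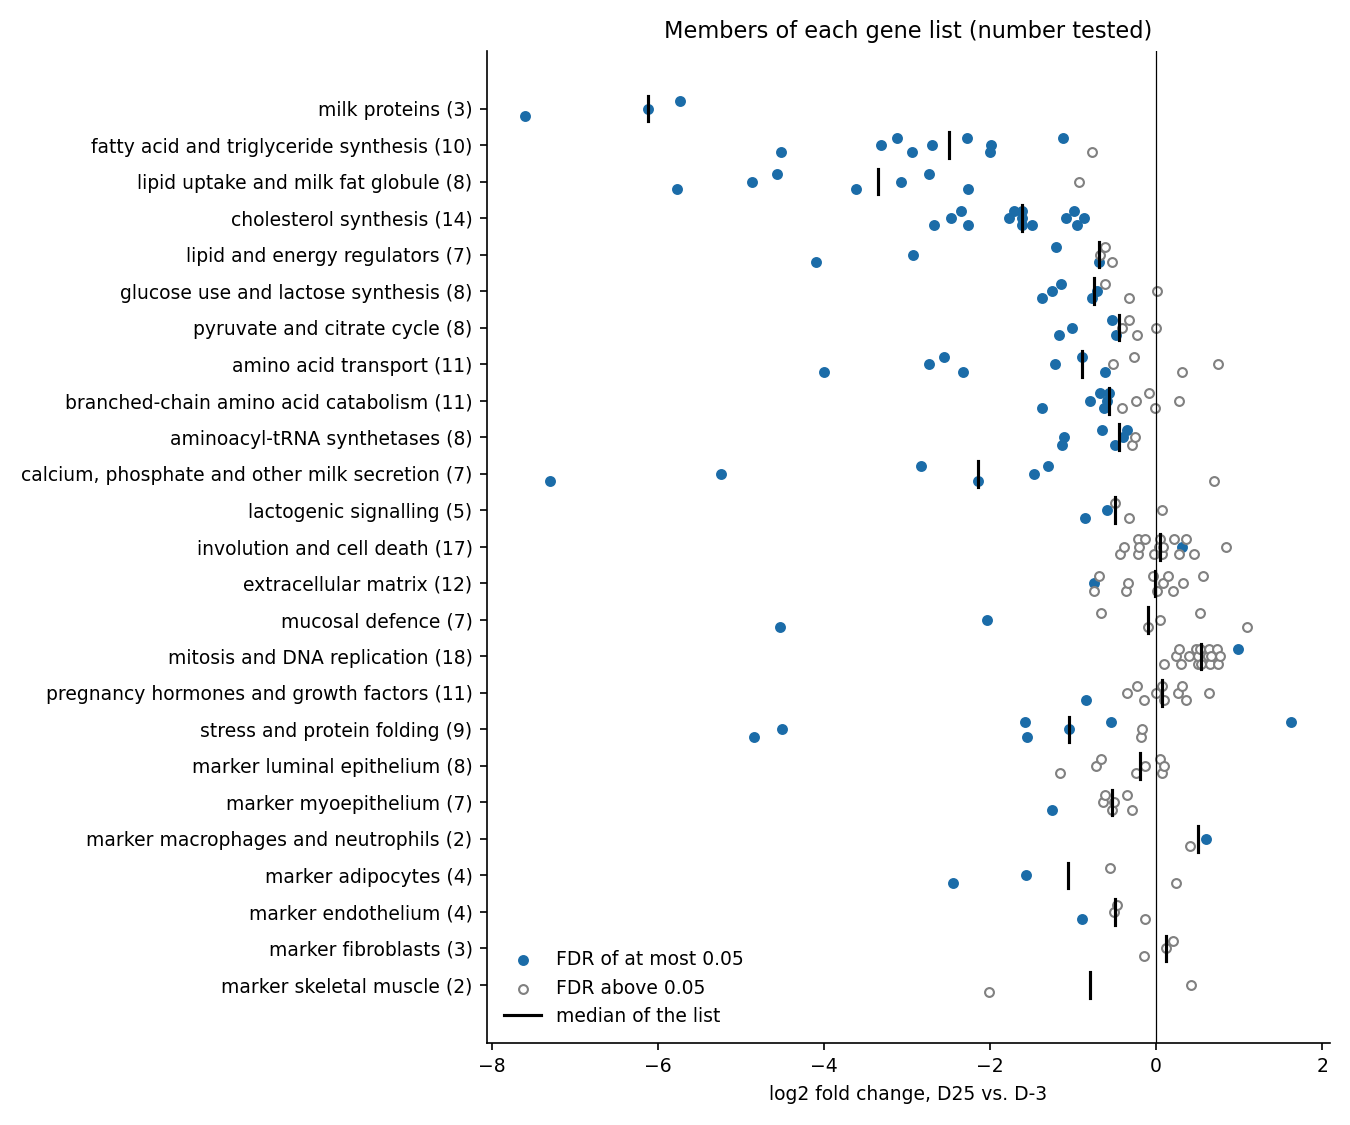
Log2 fold change for D25 vs. D-3 (x axis) of each tested member of the gene lists with at least 2 members tested (y axis, number tested in brackets), filled where the FDR was at most 0.05, with the median of the list as a bar. All 14 cholesterol synthesis genes and 9 of 10 fatty acid and triglyceride genes lie below 0 and passed, while the 18 mitosis genes lie above 0 and 1 passed. With library size as the sole scaling the median of the cholesterol genes was -0.51, that of the mitosis genes 0.67 and that of all loci 0.48.

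The named genes with the largest increases were of other kinds. VNN1, a pantetheinase, ranged from 1.22 to 7.68 (median 2.48) CPM at D-3 and from 2.08 to 66.4 (median 6.51) CPM at D25, a log2 fold change of 1.83 ± 0.42 (SE), FDR = 0.00269. HMOX1, the heme oxygenase that degrades heme, ranged from 11.4 to 73.3 (median 24.8) CPM at D-3 and from 24.4 to 294 (median 87.0) CPM at D25, a log2 fold change of 1.63 ± 0.42 (SE), FDR = 0.00626. ABCA1, which exports cholesterol from cells, ranged from 25.5 to 136 (median 64.3) CPM at D-3 and from 71.9 to 226 (median 144) CPM at D25, a log2 fold change of 1.13 ± 0.25 (SE), FDR = 0.00148. For ABCA1 every D25 sample was above the D-3 median and 7 D-3 samples were below all D25 samples, while 5 overlapped. ABCA1 was also higher at D25 than at D3, by 0.94 (FDR = 0.0143), and its medians were 64.3, 72.9, 101, 161 and 144 CPM on the 5 days in order of time. The calls of HMOX1 and ABCA1 held with any 1 cow left out, and that of VNN1 was lost without cow 8603. Without the 5 D-3 samples the log2 fold changes of VNN1, HMOX1 and ABCA1 were 1.69, 1.29 and 0.78, none with an FDR of at most 0.05.

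Further genes among the 10 largest named increases were these. CD300E, a receptor of myeloid cells, was at 1.003 (FDR = 0.0144), the transferrin locus TF (shared with LOC525947) at 0.89 (FDR = 0.0244), AFF2 at 1.05 (FDR = 0.017), the secretory granule gene SCG3 at 0.99 (FDR = 0.0368), ELFN2 at 1.18 (FDR = 0.0284) and C3orf80 at 2.08 (FDR = 0.0294). C3orf80 and SCG3 had low counts, with D25 medians of 0.815 and 0.943 CPM. In the fit of the 24 samples alone CD300E, TF, SCG3, ELFN2 and C3orf80 lost their calls. Most upregulated DEGs have no symbol here. Among them XLOC_023993 and XLOC_007235 were chosen for their mean CPM after their values were seen. XLOC_023993 ranged from 524 to 5419 (median 1519) CPM at D-3 and from 1758 to 11009.9 (median 2734) CPM at D25, with 1.16 ± 0.37 (SE), FDR = 0.0282. XLOC_007235 ranged from 388 to 2457 (median 768) CPM at D-3 and from 486 to 3597 (median 1765) CPM at D25, with 1.17 ± 0.39 (SE), FDR = 0.038. Their calls were lost when any of several single cows was left out, 8541, 8603, 8647 and 8713 for both.

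Among proliferation genes 1 rose, and the rest did not pass. MKI67, a protein of dividing cells, ranged from 2.65 to 113 (median 32.4) CPM at D-3 and from 46.8 to 136 (median 73.4) CPM at D25, with 0.99 ± 0.33 (SE), FDR = 0.0374, and every D25 sample was above the D-3 median. Of 18 mitosis and DNA replication genes, all had a log2 fold change above 0, with a median of 0.54 beside -0.11 over loci with a symbol, but MKI67 alone passed. With the cow as a replicate block 3 of the 18 passed, KIF20A among them (FDR = 0.0353), and in the fit of the 24 samples alone none did (MKI67, FDR = 0.139). The DNA topoisomerase gene TOP2A ranged from 6.29 to 166 (median 28.2) CPM at D-3 and from 27.6 to 143 (median 69.9) CPM at D25 and the kinesin gene KIF20A ranged from 0.68 to 31.1 (median 6.11) CPM at D-3 and from 6.84 to 39.1 (median 15.3) CPM at D25, with log2 fold changes of 0.55 (FDR = 0.305) and 0.77 (FDR = 0.17). For KIF20A 7 D-3 samples lay below all D25 samples, and CDK1 was at 0.24 (FDR = 0.555). The MKI67 call was lost when any of 7 cows was left out (7965, 8060, 8513, 8541, 8564, 8647 or 8713). Without the 5 D-3 samples the median of the group was -0.05. At D3, D7 and D14 the median of MKI67 was 44.3, 87.1 and 91.4 CPM.

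Of the genes of involution and matrix remodelling few passed against D-3. In the list of involution and cell death, 1 of 17 genes was upregulated, EPG5, an autophagy gene, at 0.31 (FDR = 0.0226), and none was downregulated, with a median of 0.05 (0.55 with library size as the sole scaling and -0.04 without the 5 D-3 samples). With the cow as a replicate block 4 were upregulated. CLU, which encodes clusterin, ranged from 139.9 to 5111 (median 800.3) CPM at D-3 and from 792 to 3318 (median 1284) CPM at D25, with 0.46 (FDR = 0.461), STAT3 was at 0.05 (FDR = 0.851) and IGFBP5 at -0.22 (FDR = 0.701). Of 12 extracellular matrix genes, TIMP3, an inhibitor of metalloproteinases, was downregulated at -0.75 (FDR = 0.00807) (0.07 with library size as the sole scaling), while FN1, DCN and THBS1 were at 0.56 (FDR = 0.262), 0.20 (FDR = 0.615) and -0.75 (FDR = 0.171).

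D3 falls early in involution. For D25 vs. D3, 206 loci (1.40%) were upregulated and 680 (4.62%) downregulated at D25, and 18.3% of the loci with a symbol were downregulated. Of the 17 involution genes 9 were lower at D25 than at D3, and of the 12 matrix genes 8, with medians of -0.65 and -1.12. The autophagy receptor gene SQSTM1 differed by -1.08 (FDR = 0.00185), IGFBP5 by -1.53 (FDR = 0.00203) and the matrix protein gene THBS1 by -2.07 (FDR = 0.00046). THBS1 had a median of 795 CPM at D3, 180.3 at D-3 and 196 at D25. None of the 3 milk protein genes passed for D25 vs. D3. The symbols were taken from tables that rank loci by D3, so these counts too come from loci that were picked for a change at D3.

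**Figure D5:**
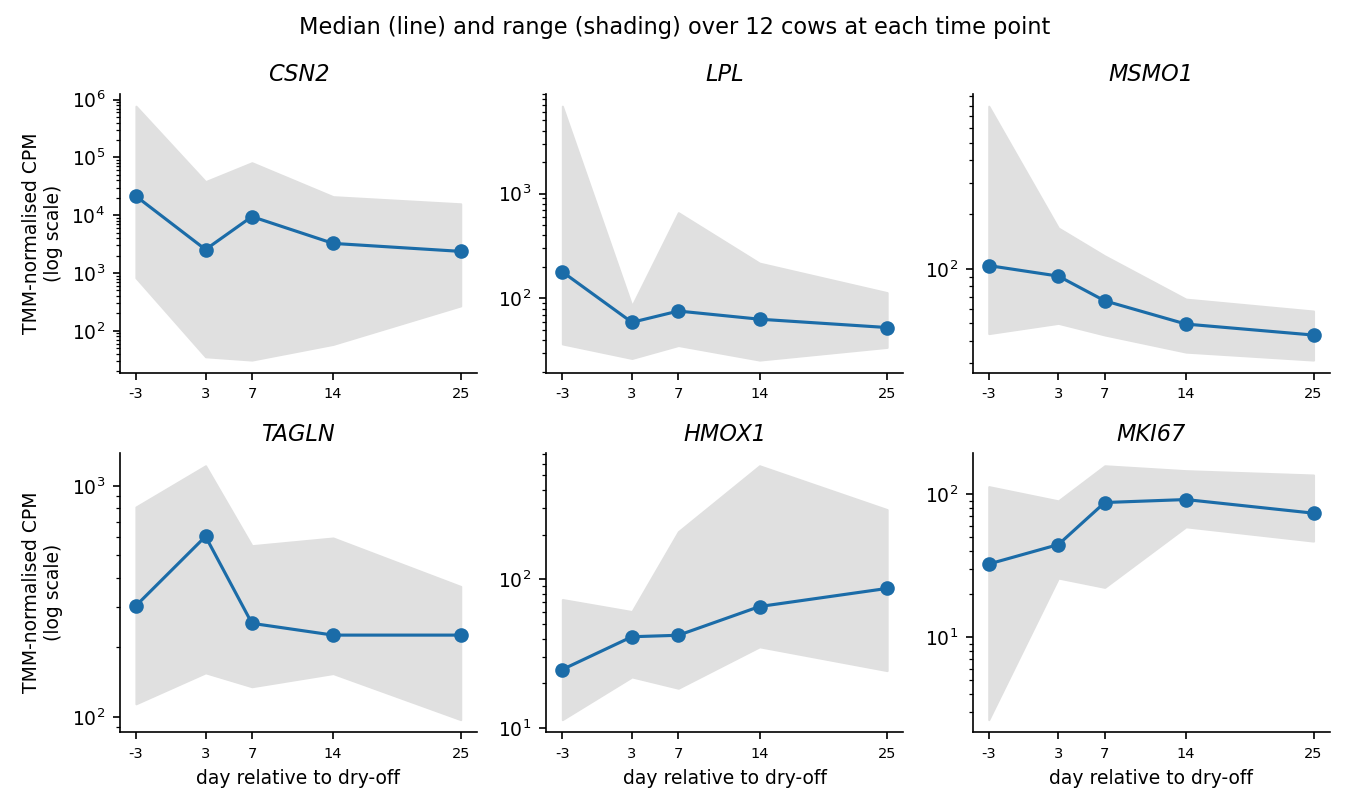
Median (line) and range (shading) of the TMM-normalised CPM (log axis) over 12 cows against the day relative to dry-off for 6 genes. CSN2 and LPL have their highest medians at D-3, MSMO1 declines up to D25, TAGLN peaks at D3, and HMOX1 has its highest median, 87.0 CPM, at D25.

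Markers of the cell types in the biopsy are given as measured, since in bulk tissue fewer cells of a type and less RNA per cell cannot be told apart. The tissue label was checked on epithelial genes. KRT19, a keratin of luminal cells, ranged from 454 to 1181 (median 908) CPM at D-3 and from 277 to 669.9 (median 503) CPM at D25, with -0.73 (FDR = 0.148), KRT7 (in a locus shared with LOC787600) was at 0.10 (FDR = 0.877) and the tight junction gene CLDN7 at -0.25 (FDR = 0.58). All 8 luminal markers were present and none passed (2 were lower in the fit of the 24 samples alone, KRT19 among them), and their summed level was between 1127 and 2592 CPM at D-3 and between 888 and 1814 at D25. EPCAM, KRT8 and KRT18 could not be paired with a locus. Of 7 myoepithelial markers the calponin gene CNN1 was downregulated, at -1.25 (FDR = 0.0244), and ACTA2, TAGLN and KRT5 were at -0.50 (FDR = 0.222), -0.53 (FDR = 0.219) and -0.29 (FDR = 0.566). Of the 7, 2 were downregulated with the cow as a replicate block. All 7 were lower at D25 than at D3, for example TAGLN at -1.64 (FDR = 0.00033).

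Few markers of other cells could be paired with a locus. Of 17 macrophage and neutrophil markers 2 were tested. AIF1, a macrophage gene, ranged from 9.54 to 33.1 (median 21.4) CPM at D-3 and from 19.5 to 45.8 (median 31.5) CPM at D25, with 0.60 ± 0.19 (SE), FDR = 0.0305, and the scavenger receptor gene MSR1 did not pass at 0.41 (FDR = 0.219). The AIF1 call was lost in the fit of the 24 samples alone (FDR = 0.0644). The sum of both was between 45.2 and 85.8 CPM at D-3 and between 48.6 and 143.8 CPM at D25. It is set beside HMOX1, CD300E and ABCA1 since macrophages can express these genes, and its part in their increase was not tested. Of 12 adipocyte markers 4 were tested. Of these 2 were downregulated, among them FABP4 at -1.56 (FDR = 0.0258), while ADIPOQ, a defining gene of adipocytes, was at 0.24 (FDR = 0.771). The summed adipocyte level was between 175.6 and 3403 CPM at D-3 and between 163 and 820.5 at D25, and its part in the decrease of lipid genes was not tested. Of 4 endothelial markers the VEGF receptor gene FLT1 was downregulated, at -0.89 (FDR = 0.00388), and KDR was at -0.51 (FDR = 0.121). The FLT1 call was lost in the fit of the 24 samples alone. None of the 3 fibroblast markers, the T cell gene ZAP70, at -0.44 (FDR = 0.174), and the 1 tested marker of plasma cells passed. The skeletal muscle genes MYH2 and MYH7 were at most 2.59 and 1.12 CPM in any D-3 or D25 sample, and MYH2 was called lower with the cow as a replicate block (FDR = 0.0395).

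Within treatments, with 6 cows a side, 224 loci (1.52%) were DEGs for D25 vs. D-3 in CL, 26 upregulated and 198 downregulated, and 83 (0.564%) were DEGs in HT, all downregulated. The difference between these counts is no test of a difference between treatments. In a test of the interaction itself, no locus (0%) had an FDR of at most 0.05 by edgeR's quasi-likelihood test, and 93 loci had an unadjusted p under 0.05. The interaction count was also 0 under every alternative that was run for it. The log2 fold changes in CL and HT were -6.35 and -5.24 for CSN2, -4.98 and -4.74 for LPL, -2.68 and -2.24 for MSMO1, and 1.73 and 1.57 for HMOX1. The SE of the difference between HT and CL was 2.01 for CSN2, 1.14 for LPL, 0.64 for MSMO1 and 0.82 for HMOX1, so a difference of that size was not detectable here. Of the 5 D-3 samples rich in milk protein reads, 3 were from CL cows and 2 from HT cows, before either treatment had begun. The counts within treatments depended on these cows. In CL the count was 0 without cow 8647, 7 without 7965 and 10 without 8564, and in HT it was 0 without cow 8713 and 1 without 8541. The 3 loci with the smallest p for the interaction, XLOC_010247, XLOC_006203 and XLOC_025221, had unadjusted p-values from 0.00302 to 0.00528 by edgeR, which did not pass the correction, and none has a symbol here. With the cow as a replicate block the counts were 295 in CL and 0 in HT, and in a fit of the 24 samples alone both were 0.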

How the data were processed

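RNA of mammary biopsies was sequenced after poly(A) selection with an unstranded kit, so a gene and an antisense partner cannot be told apart. Per the labels and the study's methods, the authors trimmed reads with Trim Galore 0.4.1, aligned them with TopHat2 2.0.13, merged transcripts with Cufflinks 2.2.1 and counted uniquely mapped reads per locus with HTSeq, and deposited raw counts for 25223 loci per sample. The sources name different genome builds, so no coordinates are given. The 14714 loci that reached 1 CPM in 6 or more samples were tested with edgeR 4.0.16 in R 4.3.3, with TMM factors, trended dispersions and the quasi-likelihood F-test on all 60 samples with a mean per time point, or per treatment and time point for CL, HT and the interaction. P-values were adjusted by Benjamini-Hochberg over all loci tested. The SE is the size of the log2 fold change divided by the square root of F. CPM shown are TMM-normalised.

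The main fit had no cow term, because labels of some late HT samples may be exchanged. Since the labels give the same cow at each time point, deviations from the group mean were compared between D-3 and D25. They had a mean r of 0.161 across loci within a cow and -0.0319 between cows of a treatment, and r was over 0.1 in 8 of 12 cows. The fit with the cow as replicate block is given where it changed the call of a named gene other than those of the interaction, or moved a total or a list's count by over 1.5 times. Depth limits loci near 1 CPM. In the main fit, p-values measure the spread between samples within a group, pooled over all time points, with samples of the same cow taken as independent. That pooled spread is not the spread of D-3 and D25 alone. The median SD of log2 CPM was 0.47 at D-3 and 0.32 at D25.

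The samples and gene lists were chosen with earlier results of these data known. Symbols came from the part of the study's tables held here. Named genes were, in each list, those with the smallest p in each direction and the highest mean CPM, with further members chosen after their values were seen, and some members are not reported here. Across all loci they were the 10 largest changes each way among DEGs with a symbol whose D25 values lay on 1 side of the D-3 median in at least 11 samples, and the 3 smallest p of the interaction. The scripts were tested on simulated data. DESeq2 1.42.0, other scalings, filters, dispersions and sample sets were tried as alternatives.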

Additional observations from a re-analysis of the deposited data

How the results depend on the processing

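The D25 vs. D-3 count of 1930 DEGs moved to 945 with the 24 samples of D25 and D-3 alone, 6038 with library size as the sole scaling, 753 under the stricter FDR of 0.01, 536 when a 2-fold change was also required, and 2 without the 5 D-3 samples rich in milk protein reads (chosen after seeing the data). With the cow as a replicate block it was 3003, with cows 8513 and 8660 exchanged at D14 and D25 3228, and with both left out 3381. It ran from 865 to 2146 with 1 cow left out, and DESeq2 gave 2213. RLE factors, TMM without the 3 milk protein genes that had a paired locus, edgeR's other mode and tagwise dispersions, other filters and a treatment term gave 1780 to 2118. In CL the 224 DEGs became 0 with the 24 samples alone, 15 with library size only, 0 without the 5 D-3 samples, and 0 to 383 with 1 cow left out. In HT the 83 became 0, 1 and 0 in the same settings, 0 with the replicate block, and 0 to 129 with 1 cow left out, where they were 31 without cow 8660, 43 without 8668, 44 without 8564, 55 without 8513 and 129 without 8314. In CL they were 359 without 8713 and 383 without 8686. The cause was not tested.

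Of the named genes called with or without the change of setting, the log2 fold changes that went from below to above 0 with library size as the sole scaling, which moved the median of all loci to 0.48, were 0.00739 for MVD, 0.0175 for HSD17B7, 0.0273 for SREBF2, 0.255 for PDHA1, 0.201 for SLC38A2, 0.229 for IVD, 0.0252 for CISH, 0.135 for NR3C1, 0.066 for TIMP3, 0.0327 for VEGFA, 0.163 for DDIT3, 0.0859 for FLT1 and 0.459 for KDR. Those that did so without the 5 D-3 samples were 0.0492 for GPAM, 0.0311 for ACACA, 0.0744 for HSD17B7, 0.000384 for SLC2A1, 0.0233 for B4GALT1, 0.0205 for PDHA1, 0.0384 for SLC7A5, 0.0192 for SLC38A2, 0.129 for HIBADH, 0.14 for IVD, 0.0246 for GARS, 0.00834 for RNASE4/ANG/ANG2, 0.0361 for ATF4 and 0.129 for FLT1. Of the 74 named genes and loci called, 2 passed there, XLOC_019781 and XLOC_025221. Loci that passed in this setting were named for that reason, so the count of 2 is no separate result. Under RLE factors, TMM without the 3 paired milk protein genes and a treatment term no named gene changed its side of the threshold. Other abundant loci without a symbol stayed in that scaling. Genes called in neither fit are not counted among these changes of sign.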
